A study of Mus musculus with 4 samples.

Results

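Chromatin at the genes for the receptors of EGF and FGF was described in cultured mouse neural stem cells, the dividing precursors of neurons and glia. The 8 genes were chosen by name, as the 4 members of the EGF receptor family (Egfr, Erbb2, Erbb3 and Erbb4) and the 4 classical FGF receptors (Fgfr1, Fgfr2, Fgfr3 and Fgfr4), out of 21755 protein-coding genes on chromosomes 1 to 19 and X. The rule names the genes and uses no measured value, although earlier results of these data were known when they were chosen. The cells came from E12.5 embryos of WT C57BL/6J mice, and all cultures received recombinant human EGF at 20 ng/ml and FGF at 10 ng/ml in medium with heparin. There were 4 samples in 4 groups of 1: a PHF2 ChIP, an H3K9me2 ChIP, and an input for each. PHF2 is a JmjC-domain protein that removes methyl groups from histone H3 at lysine 9, and H3K9me2 is the dimethyl form of that residue, a mark known mainly from silent chromatin. The values below come from 1 list of PHF2 peaks and 1 list of H3K9me2 regions, so no value has a replicate, no test between conditions could be made, and the read depth is unknown. The inputs were not analysed here, and none of the 4 samples was grown without EGF and FGF. The labelled cell type could not be checked against marker genes, because neither list measures expression.

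EGF and FGF receptors are single-pass membrane proteins with a tyrosine kinase inside the cell. A bound ligand pairs the receptors, the kinases phosphorylate each other, and adaptor proteins then switch on RAS and the MAP kinase cascade. ErbB2 has no known direct ligand and ErbB3 has little kinase activity of its own, so both act mainly within receptor pairs. FGF receptors bind their ligands together with heparan sulphate. In neural stem cell culture EGF and FGF are the usual mitogens, and in the embryonic brain FGF responsiveness is known to come before EGF responsiveness.

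A PHF2 peak lay within 1 kb of an annotated transcript start (GENCODE M21, mm10) at 6 of the 8 receptor genes, against 6374 of 21755 protein-coding genes, or 29.3%. These were Egfr, Erbb2 and Erbb4 of the EGF receptor family and Fgfr1, Fgfr2 and Fgfr3 of the FGF receptors. Erbb3 and Fgfr4 had none. An H3K9me2 region lay within 1 kb of a start at 1 of the 8, Erbb4, against 760 genes in all, or 3.49%. Inside the annotated gene body, 4 of the 8 had at least 1 H3K9me2 region (Egfr, Erbb4, Fgfr1 and Fgfr2), against 5274 genes, or 24.2%. With 8 genes these counts are descriptions, and nothing particular to the receptors was read from them.

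Promoter sequences are shown for 3 receptors at different places in the PHF2 list: Egfr with the highest score of the 8, Fgfr3 with the lowest of those with a peak, and Fgfr4 without a peak. Each runs from 250 bases before to 50 bases after a RefSeq transcript start on GRCm38.p6, 5′ to 3′ on the coding strand, with every CpG dinucleotide in capitals.
Egfr, chr11:16751953-16752252, plus strand: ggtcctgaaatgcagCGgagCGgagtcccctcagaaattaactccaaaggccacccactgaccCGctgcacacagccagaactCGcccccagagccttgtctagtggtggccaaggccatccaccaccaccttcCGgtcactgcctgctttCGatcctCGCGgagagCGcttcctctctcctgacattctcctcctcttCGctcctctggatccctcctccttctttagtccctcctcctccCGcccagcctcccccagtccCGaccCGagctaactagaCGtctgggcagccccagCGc
Fgfr3, chr5:33721474-33721773, plus strand: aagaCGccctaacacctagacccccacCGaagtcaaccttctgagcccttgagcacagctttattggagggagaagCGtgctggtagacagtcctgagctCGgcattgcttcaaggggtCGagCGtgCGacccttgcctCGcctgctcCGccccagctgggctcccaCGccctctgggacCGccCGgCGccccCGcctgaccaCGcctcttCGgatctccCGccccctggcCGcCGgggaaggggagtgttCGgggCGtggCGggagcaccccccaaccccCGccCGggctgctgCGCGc
Fgfr4, chr13:55152568-55152867, plus strand: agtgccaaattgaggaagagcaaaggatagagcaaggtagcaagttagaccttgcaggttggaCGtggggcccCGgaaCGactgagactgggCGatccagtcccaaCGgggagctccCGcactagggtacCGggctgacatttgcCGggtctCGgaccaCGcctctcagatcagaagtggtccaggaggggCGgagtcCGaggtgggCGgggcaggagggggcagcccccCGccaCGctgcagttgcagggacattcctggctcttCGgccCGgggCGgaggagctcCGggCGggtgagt
The Egfr stretch held 15 CpGs, and all 300 of its bases lay under the PHF2 peak. The Fgfr3 stretch held 26 CpGs and also lay wholly under its peak. The Fgfr4 stretch held 20 CpGs, more than that of Egfr, and no base of it lay under a peak. Over 21006 RefSeq promoters of protein-coding genes the median was 13 CpGs, with 25 in those under a PHF2 peak and 7 elsewhere.

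The receptor promoters were spread widely over the PHF2 list. Each peak carries a score given by the authors, on a scale that the headers and labels do not name, and it was used only to describe and compare peaks inside this list, by rank, by median and by nearness in log10 score. The 5992 peaks had scores of 100.02 to 3226.07 with a median of 229.09, and lengths of 459 to 6534 bp with a median of 1306 bp. The best peaks of the 6 receptor genes had scores between 156.65 and 1255.15, from far above the median peak to below it. Their median score was 588.68, or 380.53 with Fgfr2 taken at its own starts as described below, against a median best score of 231 over the 6374 genes with a promoter peak.

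Egfr, which encodes the receptor of the EGF in the medium, had the highest-ranked peak of the 8 genes. The gene lies at chr11:16752203-16918158 on the plus strand and spans 166 kb. Its peak, at 16751664 to 16754171, was 2508 bp long with a score of 1255.15, rank 104 of the list by score and 324 by length. Of the genes with a promoter peak, 98.4% had a lower best score. The peak began 539 bp upstream of the first start and reached 1968 bp into the gene, so most of it lay downstream, and 14.7% of it was exon. It covered 3 of the 5 annotated starts. The other two, 126 kb and 153 kb further downstream, had no peak. The Egfr peak was poorer in CpG than most: its observed/expected ratio, which sets the CpG count against that expected from the C and G content, was 0.585, and 8.58% of all peaks had a lower one.

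Fgfr1, an FGF receptor gene of neural progenitors, came next. The gene lies at chr8:25513654-25575718 on the plus strand. Its peak at 25518292 to 25520720 was 2429 bp long with a score of 860.87, rank 267 by score and 368 by length. The first annotated start, that of the coding transcript Fgfr1-212, was not under this peak but 4638 bp upstream of it, and its own window held none. The peak instead covered a cluster of 7 starts that begins 5105 bp downstream of the first, with 467 bp of the peak upstream of that cluster and 1961 bp downstream. The other 10 starts, further into the gene, had no peak. With the first annotated start as the only one considered, Fgfr1 would have counted as a gene without PHF2.

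Fgfr2 needed its annotation taken apart before its values could be read. Fgfr2 is annotated over 2961 kb, chr7:130162451-133123350 on the minus strand, and this length rests on 1 transcript, Fgfr2-217. That transcript starts 2.86 Mb away from the other Fgfr2 starts, 2 bp from a start of Ctbp2, a transcriptional co-repressor gene. All 210 bp of its first exon lay in Ctbp2 exons, 5 of its 7 exons lay in Fgfr2 itself, and its span holds 29 other protein-coding genes. Counted by the annotation, the best Fgfr2 peak was 1 of 2 at this distant start, with scores of 646.53 and 412.91, and both also lay within 1 kb of Ctbp2 starts. Without Fgfr2-217, a choice made after the data were seen, the gene covers 104 kb, chr7:130162451-130266263. Its own peak at 130264589 to 130266602 had a score of 229.58, rank 2982, close to the middle of the list. In length, 2014 bp, the same peak ranked 755, so it was long for its score. It covered 4 of the 13 starts, reached 339 bp upstream and 1674 bp downstream, and was 83.2% exonic. Another start had the peak within 1 kb. The start shared by 13 coding transcripts, at 130261857 and further into the gene, had no peak within 1 kb.

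Erbb4, the neuregulin receptor of migrating and differentiating neural cells, had 2 adjacent peaks. The gene lies at chr1:68032186-69108059 on the minus strand and spans 1076 kb. The peak over its first start, at 69106734 to 69108742, was 2009 bp long with a score of 530.83, rank 814, and covered both starts of its coding transcripts. The second, at 69105385 to 69106702, had a score of 204.04 and lay wholly in intron 1. It came within 1054 bp of the nearest start and was therefore just outside the 1 kb window. The other two starts, those of non-coding transcripts deep in the gene, had no PHF2 peak.

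Erbb2 and Fgfr3 had peaks of middle and low rank. Erbb2, the preferred partner of the other ErbB receptors, lies at chr11:98412470-98437716 on the plus strand. Its peak at 98412110 to 98413313 had a score of 230.23, rank 2972, a length of 1204 bp, and covered 2 of 3 starts. Fgfr3, an FGF receptor of neural progenitors and astrocytes, lies at chr5:33721674-33737068 on the plus strand. Its peak at 33721438 to 33722472 had a score of 156.65, rank 4441, and at 1035 bp it was the shortest of the 6. It covered 6 of 14 starts within 770 bp, and 24.6% of the genes with a promoter peak had a lower best score. Fgfr3 and Egfr thus had the lowest and the highest score of the 6, and both peaks covered the first start.

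Erbb3 and Fgfr4 had no PHF2 peak near a start or in the gene body. Erbb3, at chr10:128567523-128589652 on the minus strand, has 1 annotated start, and the nearest peak was 23.2 kb from that start, beyond the 3′ end of the gene, at Pa2g4, which encodes an ErbB3-binding protein. That peak had a score of 269.21, above those of Erbb2 and Fgfr3. Fgfr4, at chr13:55152640-55168759 on the plus strand, had its nearest peak 46.5 kb from its first start, near Zfp346, with a score of 144.49. Absence from the list says that no peak reached the authors' cut-off, the lowest listed score being 100.02, and not that PHF2 was absent.

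**Figure D1:**
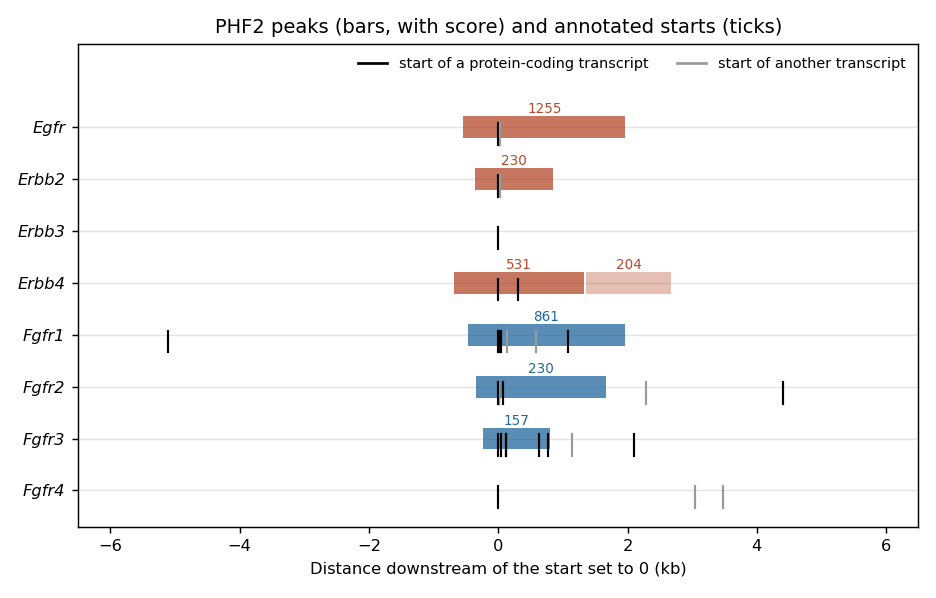
PHF2 peaks (bars, labelled with the authors' score) and annotated transcript starts (ticks) of the 8 receptor genes, by distance in kb downstream of the start set to 0, which is the first start of the gene, for Fgfr1 the first start under the peak, and for Fgfr2 the first start without transcript Fgfr2-217. All 6 promoter peaks reached further downstream than upstream of that start, the most upstream one each covered. The paler Erbb4 bar is the peak outside the 1 kb window, and Erbb3 and Fgfr4 have no bar.

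All 6 promoter peaks covered at least 1 start. Measured from the most upstream start that each covered, all 6 extended further into the gene than before it. Where a peak covers several starts, this choice lengthens the downstream part, and no value over all PHF2 peaks is given here. The upstream part was 236 bp at Fgfr3 and 683 bp at Erbb4, the smallest and the largest of the 6, and the downstream part was 798 bp at Fgfr3 and 1968 bp at Egfr. Over all PHF2 peaks score and length rose together (Spearman rho 0.836, a description over peaks that share 1 library). The receptor peaks followed that slope except that Fgfr2 lay at the long edge for its score: its 2014 bp were close to the 2009 bp of Erbb4, with scores of 229.58 and 530.83. Erbb2 matched Fgfr2 in score, 230.23, with a peak of 1204 bp.

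**Figure D2:**
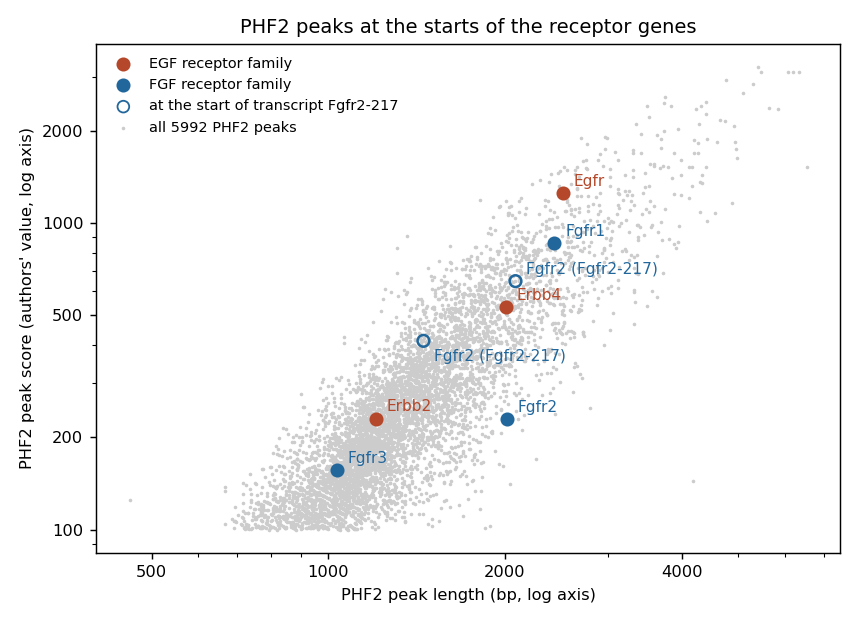
Score against length in bp of all 5992 PHF2 peaks (grey, both axes logarithmic), with the promoter peaks of the receptor genes in colour and the peaks at the distant start of Fgfr2-217 as open circles. Egfr and Fgfr1 lie near the upper end, Erbb2 and Fgfr3 in the dense lower part, and Fgfr2 at the long side for its score of 229.58.

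The promoter peaks nearest to each receptor's in log10 score and log10 length were at genes of varied kinds. For Egfr they were at Arid1b, a chromatin remodeller subunit gene, with a score of 1289.98, and Igfbp2, a gene of an insulin-like growth factor binding protein, with 1318.15. For Fgfr1 they were at Fabp7, a fatty acid binding protein gene of radial glia, with 864.67, and Tspan5, with 859.72. For Erbb4 they were at 1110065P20Rik and Yrdc, which share 1 peak with a score of 536.22. Erbb2 was nearest to Dennd5a and Acaca, with 229.4 and 229.99, and Fgfr3 to Nkd1 and Cnot3, with 154.71 and 158.78. Fgfr2 at its own starts was nearest to Atp6v1a and Naa50, which share a peak with 229.84, and at the start of Fgfr2-217 to Sgk1 and Daam1, with 645.48 and 641.25. The likeness is over 1 score and 1 length in 1 library.

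CpG content separated most receptor windows with a peak from those without, with Erbb3 as the exception at the high end. Starts with overlapping windows were joined, which gave 31 windows for the 8 genes without Fgfr2-217. Joining hides 1 richer start without a peak. The coding start of Fgfr3-208, at 33723772, had a ratio of 0.652 in its own window and no peak there, but was joined to starts with a peak. The 7 windows with a PHF2 peak had CpG observed/expected ratios of 0.356 to 0.747, and the 24 without had 0.0716 to 0.607, so the ranges overlapped. Over all 44269 windows of protein-coding genes, 14.8% had a PHF2 peak, with a median ratio of 0.670 in windows with a peak and 0.239 in those without. The window of Erbb3, at 0.607, was richer in CpG than those of Egfr, at 0.583, and Erbb2, at 0.593, which both had a peak. It fell in decile 9 of all windows, where 47.0% had a peak. The first window of Fgfr4, at 0.544, fell in decile 8, where 24.7% had one. The low value among windows with a peak, 0.356, belonged to an Fgfr2 window that the peak reaches only at its edge.

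**Figure D3:**
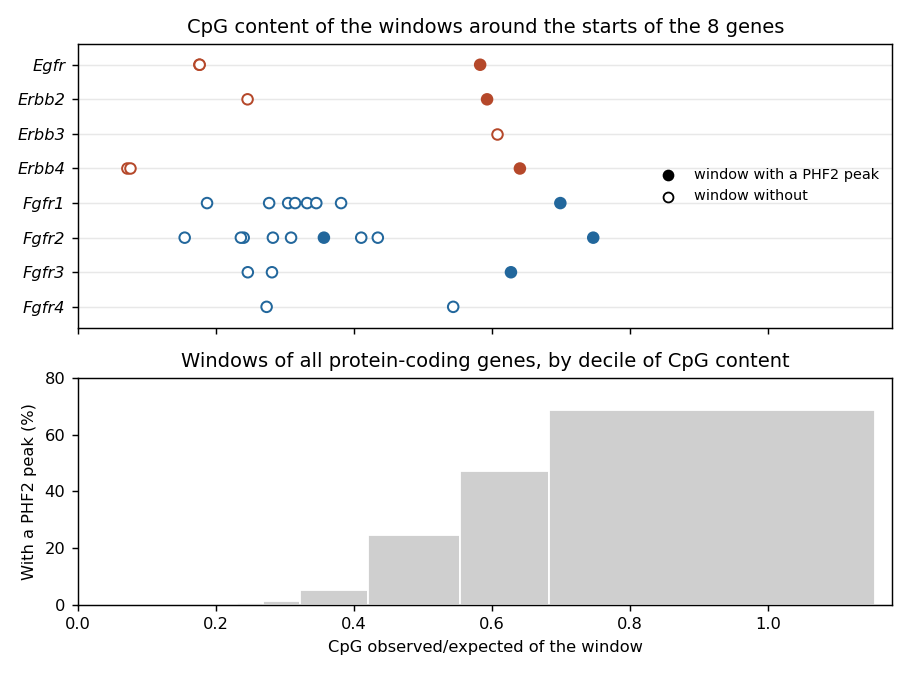
Top, CpG observed/expected ratio of each window around the starts of the 8 genes (filled, with a PHF2 peak, and open, without), Fgfr2 without Fgfr2-217. Bottom, share in % of the windows of all protein-coding genes with a PHF2 peak in each decile of the same ratio, reaching 68.6% in decile 10, and the open Erbb3 point at 0.607 lies among the filled ones.

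Short motifs in the RefSeq promoters were searched as exact letters on both strands. The table held 7 promoters of 6 receptors: Egfr, Erbb2, Erbb4, Fgfr2, Fgfr4 and, with 2 starts, Fgfr3. Erbb3 and Fgfr1 were not among them. The GC box, GGGCGG, was present in 4 of the 7, against 46.6% of all 21006 promoters and 72.6% of those under a PHF2 peak. It occurred in the Egfr promoter, in both of Fgfr3 and in that of Fgfr4, which had no peak. The CCAAT box, CCAAT, was in 2 of 7, against 38.2% of all and 37.2% of those under a peak. The ETS core, CCGGAA, was in 3 of 7, against 18.8% of all and 32.5% under a peak. The TATA box, TATAAA, was in none, against 12.55% of all promoters and 5.42% under a peak. The E-box, CACGTG, was in 1, against 7.90% of all and 10.3% under a peak. The Fgfr2 promoter of this table starts at 130266808, upstream of the GENCODE starts, held 4 CpGs, and had 0 of its bases under the PHF2 peak, so the windows of the 2 annotations differ for this gene.

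H3K9me2 regions were short, 73 to 367 bp. No receptor gene had one within 1 kb of its first start, where 1.46% of all protein-coding genes had one. The 1 promoter call, at Erbb4, was at a start 778 kb downstream of the first, that of the retained-intron transcript Erbb4-203, in intron 11 of the coding transcript Erbb4-202. The 2 regions there, 110 and 73 bp long, were 295 and 165 bp from that start and 57 bp from each other. They are shown on the coding strand, 5′ to 3′ with CpG in capitals, as the only H3K9me2 sequences within 1 kb of a receptor start.
Erbb4, chr1:68329979-68330051, minus strand: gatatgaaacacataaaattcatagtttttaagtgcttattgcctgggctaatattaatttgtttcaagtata
Erbb4, chr1:68329812-68329921, minus strand: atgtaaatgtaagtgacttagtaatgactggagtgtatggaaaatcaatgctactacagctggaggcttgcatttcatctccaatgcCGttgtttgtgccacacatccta
Together they held 1 CpG, and the window around that start had a CpG observed/expected ratio of 0.0761, against 0.640 at the coding starts of Erbb4 under the PHF2 peak. With the starts of protein-coding transcripts alone, an alternative chosen after the data were seen, no receptor gene had an H3K9me2 region within 1 kb, against 2.30% of all genes.

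Between the PHF2 promoter peak and the nearest H3K9me2 region lay 1761 bp at Fgfr1, the shortest such gap of the 6. The Fgfr1 region, 25522482 to 25522585, was 104 bp long, lay in intron 1 of Fgfr1-201, and 59.6% of it was annotated repeat. At Egfr the gap was 10.5 kb, to a region upstream of the gene. At Erbb4 it was 28.0 kb, at Fgfr2 40.2 kb, at Erbb2 66.6 kb and at Fgfr3 83.2 kb. Over all 5992 PHF2 peaks the median distance was 35.1 kb, and 4.01% lay under 2 kb from a region. Erbb3, without PHF2, had its nearest H3K9me2 region 8758 bp upstream of its start, and Fgfr4 58.6 kb away.

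Erbb4 had 26 H3K9me2 regions, against 28 over the annotated span of Fgfr2, and without Fgfr2-217 these were 26 of the 31 regions of all 8 genes. Its density was 24.2 per Mb (95% exact Poisson interval 15.8 to 35.4). This and the following intervals cover counting error only. The 195 genes within a factor of 2 of its length had 17.7 per Mb pooled, all of them had at least 1 region, and 86.7% had a lower density than Erbb4. Among the 59 genes of 1 Mb and over, Erbb4 ranked 9 by density, with a median of 19.2 and a highest value of 30.2 per Mb at Dab1. Nrg3, whose product is an ErbB4 ligand, ranked 2 in the same list with 27.2 per Mb over 30 regions. Nrg1, which also encodes an ErbB4 ligand, ranked 15, below Erbb4, with 22.4 per Mb over 24 regions. Of the Erbb4 regions 25 lay in introns and 1 in the last exon, in its untranslated part. Intron 1, 367 kb long, held 11 of them, which is 29.96 per Mb. With the gene cut into 3 equal stretches from the start, the counts were 11, 4 and 11, and the region nearest to the start was 29.4 kb from it. Gene bodies of its GC decile, the lowest, had 15.5 per Mb.

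Egfr had 3 H3K9me2 regions, or 18.1 per Mb (3.73 to 52.8), against 13.3 per Mb pooled over genes of like length. Its interval was wide enough to hold both this value and that of Erbb4. The first lay in intron 1, at 16826519 to 16826591. The second, also in intron 1 at 16852793 to 16852865, was 76.7% repeat. The last overlapped coding exon 3 of the 28 exons of Egfr-201 by 68 bp, and is shown because it was the only receptor region in coding sequence, with CpG in capitals.
Egfr, chr11:16860010-16860135, plus strand: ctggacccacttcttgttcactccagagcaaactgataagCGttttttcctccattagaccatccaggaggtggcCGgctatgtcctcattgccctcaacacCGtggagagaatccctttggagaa
It was 126 bp long and held 3 CpGs. The exon itself runs from 16860068 to 16860251.

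The 2 FGF receptors with a region in the body had 1 each. Fgfr1 had 16.1 per Mb (0.408 to 89.8), against 10.9 pooled over genes of like length, and 42.3% of those genes had at least 1 region. Fgfr2 had 28 regions, or 9.46 per Mb, over its annotated span, of which 27 lay beyond its own starts and 16 of these inside other protein-coding genes. Without Fgfr2-217 it had 1 region, or 9.63 per Mb (0.244 to 53.7), against 12.2 in genes of like length. That region, 130224319 to 130224416 in intron 3, was 98 bp long and 75.5% repeat. The density of Fgfr2 was close to the same with and without the distant transcript, and the count was not.

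Erbb2, Erbb3, Fgfr3 and Fgfr4 held no H3K9me2 region in the gene body. These are the 4 shortest receptor genes, 15.4 to 25.2 kb, and a count of 0 was common at that length: of genes of like length, 19.2%, 17.2%, 12.6% and 13.3% had a region. Their upper limits were 146, 167, 240 and 229 per Mb, so the counts of 0 do not exclude a density as high as that of Erbb4. Over all protein-coding genes the share with a region was 11.5% under 50 kb, 59.7% at 50 to 200 kb, 96.2% at 200 kb to 1 Mb, and 100% above. The receptor genes with and without a region were therefore also the longer and the shorter ones, and the part of gene length in this split was not tested.

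**Figure D4:**
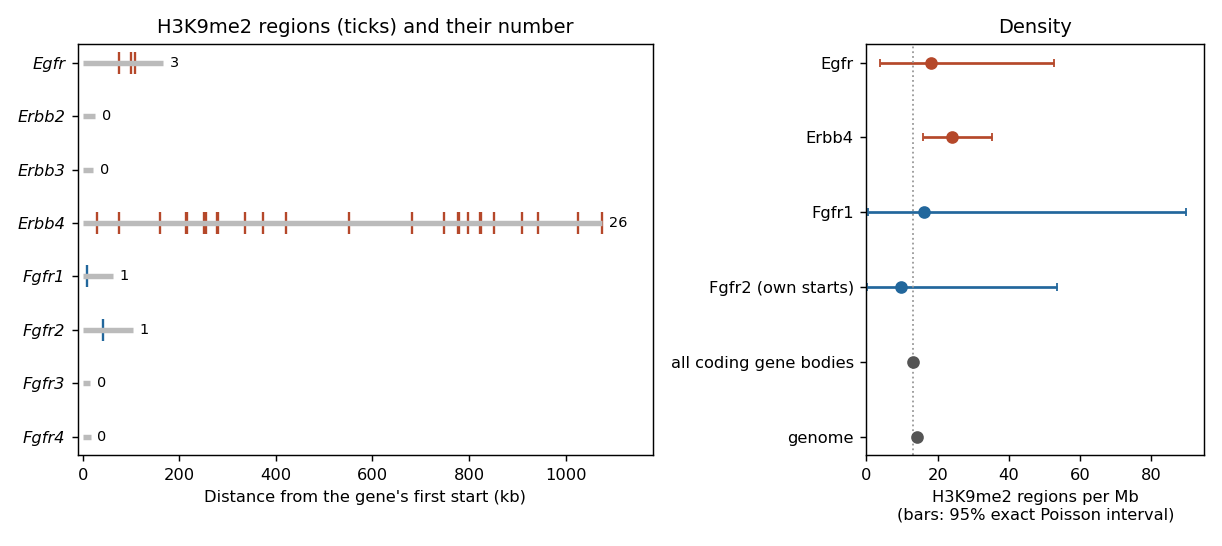
Left, H3K9me2 regions (ticks) along the 8 gene bodies (grey lines) by distance in kb from the first start, Fgfr2 without Fgfr2-217, with the number of regions at the end of each line. Right, regions per Mb with 95% exact Poisson intervals (counting error only) for the 4 genes with a region, all protein-coding gene bodies (13.1, dotted line) and the genome (14.1), where among the 4 genes the interval of Erbb4 (24.2) alone lies wholly above the dotted line.

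Pooled over the 8 annotated bodies there were 58 regions in 4.34 Mb, or 13.4 per Mb (10.1 to 17.3), against 13.1 (12.9 to 13.3) over all protein-coding gene bodies. Without Fgfr2-217 the pooled value was 31 regions or 20.9 per Mb (14.2 to 29.6), and without Erbb4 as well it was 5 regions or 12.2 per Mb (3.95 to 28.4). The pooled density of the receptors above the background thus rested on Erbb4. Of the 31 regions 17, or 54.8%, had the minimum length of 73 bp, against 55.6% of all 36111 regions. Their median GC content was 35.6%, against 42.5% over all regions, and 12.9% were mostly repeat, against 17.9%. These pooled values mainly describe Erbb4, whose 26 regions had a median GC content of 33.6%, with 3.85% mostly repeat. The regions of Egfr had 53.4%, 27.4% and 50.8% GC, and those of Fgfr1 and Fgfr2 had 55.8% and 51.0%. Repeat made up 76.7% of the second Egfr region, 59.6% of that of Fgfr1 and 75.5% of that of Fgfr2. The other Egfr regions held no repeat. A neighbour within 1 kb was found for 6 of the 26 Erbb4 regions, or 23.1%, against 4.55% of all regions, and for none of the other 5 receptor regions. Those 6 formed 3 pairs, at 252 to 253 kb, at 778 kb and at 823 to 824 kb from the start.

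Around the receptors, the share of genes with a PHF2 promoter peak differed between the lists, against 29.3% of all protein-coding genes. It was 18.2% in each ligand list, 43.8% in co-receptors, 83.3% in adaptors and enzymes, 70% in the cascade and 84.2% in inhibitors. The FGF ligand list also holds intracellular family members such as Fgf12 and Fgf14, so its share is one of family genes. The lists are short, and no difference between these shares was tested. Of 11 EGF family ligands 2 had a promoter peak, Nrg2 with a score of 163.81 and Nrg1 with 109.5, both neuregulins and ligands of ErbB3 and ErbB4. Egf itself had no PHF2 peak and was the only ligand gene with an H3K9me2 region within 1 kb of a start. That is 1 of 11 EGF family genes and 0 of 22 FGF family genes, against 3.49% of all protein-coding genes. The kind of start is not described here. Of 22 FGF family genes 4 had a peak. Fgf14, with 934.09, and Fgf12, with 229.09, encode intracellular FGF homologues that act on ion channels, and Fgf20 and Fgf9, with 107.46 and 106.43, encode secreted ligands close to the lowest listed score.

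Co-receptors had a peak at 7 of 16 genes, against 29.3% of all protein-coding genes. They were led by Gpc6, a glypican, with a score of 1711.07, and Sdc1, a syndecan, with 471.74. Gpc4 followed with 433.91, and Flrt3, an FGF receptor binding protein, with 372.61. Gpc2 had no PHF2 peak and was the 1 co-receptor gene of 16 with an H3K9me2 region at a start, against 3.49% of all protein-coding genes. Adaptors and enzymes next to the receptors had a peak at 10 of 12 genes, with Gab1 at 1298.91, Gab2 at 492.9, Crk at 388.01 and Sos2 at 299.71. Gab1, a docking protein of ErbB and FGF receptor signalling, thus had a score close to the 1255.15 of Egfr. The RAS and MAP kinase cascade had a peak at 7 of 10 genes, with Map2k1 at 601.11 and Map2k2 at 298.03 among them.

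Inhibitors of receptor signalling had a peak at 16 of the 19 listed genes that could be matched, against 29.3% of all protein-coding genes. The median score was 588.68 for the 6 receptors, or 380.53 with Fgfr2 at its own starts, and 932.395 for these 16 inhibitors. Spry2, a Sprouty protein gene induced by FGF and EGF, had the highest score of the whole list, 3226.07. Spry4 and Dusp6, which encodes a phosphatase of ERK, both had 3100, and Lrig1, which encodes a membrane protein that lowers ErbB receptor levels, had 1534.57. These 4 genes, Spry2, Spry4, Dusp6 and Lrig1, were named as the highest of the 16, so setting them against all 6 receptors would not be an even comparison. The 16 inhibitor scores ran from 209.27 to 3226.07, and those of the 6 receptors from 156.65 to 1255.15, so the ranges overlapped.

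The 8 EGF and FGF receptor genes had a peak in 75% of cases, 50 other receptor tyrosine kinase genes in 32.0% (16 genes), and all protein-coding genes in 29.3%. The highest scores of the other kinases were 1250.55 at Igf1r, the IGF receptor gene, close to that of Egfr, 821.46 at Epha5, 763.67 at Ephb3 and 716.11 at Ntrk2, the TrkB receptor gene. Styk1 was the 1 gene of the 50 with an H3K9me2 region within 1 kb of a start, against 3.49% of all protein-coding genes. No test stands behind the difference in share, since the lists were drawn up with earlier results known. Genes in the receptors' own CpG deciles, by the ratio pooled over a gene's windows, had a peak more often than all genes. The share was 37.6% in the decile of Egfr, Fgfr1 and Fgfr4, and 51.1% in that of Erbb3. It was 44.99% in the decile of Erbb2, Erbb4, Fgfr2 and Fgfr3. A peak at any start counted, and the receptors had from 1 start (Erbb3) to 18 (Fgfr1). The part of CpG content or number of starts in the contrast was not tested.

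**Figure D5:**
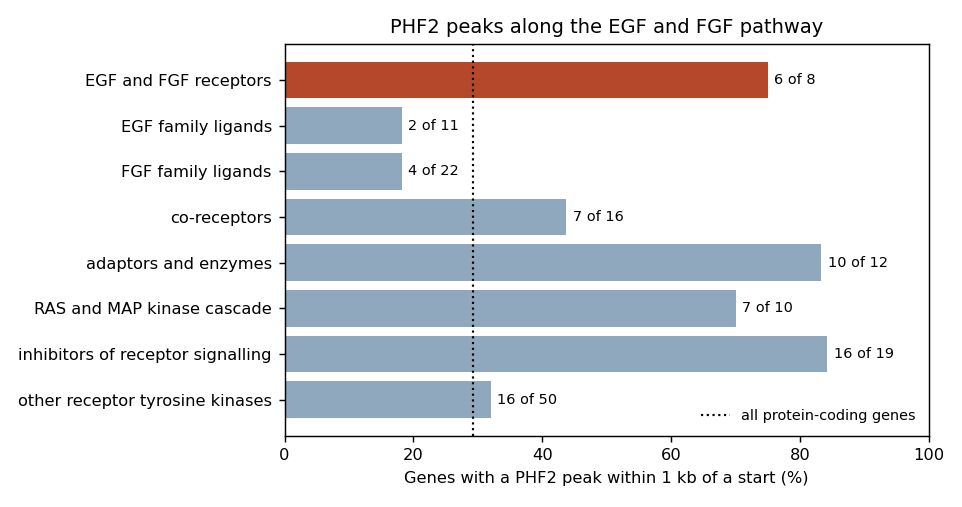
Share in % of the genes of each list with a PHF2 peak within 1 kb of a start, with the counts beside the bars and the share of all protein-coding genes (29.3%) as a dotted line. The receptors (6 of 8), adaptors (10 of 12), cascade (7 of 10) and inhibitors (16 of 19) lie to the right of the line, the ligand lists (2 of 11 and 4 of 22) to the left, and the other receptor tyrosine kinases (16 of 50) close to it.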

How the data were processed

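ChIP-seq had been done on PHF2 and H3K9me2 in neural stem cells, with 1 sample per group and 1 list of intervals per target. The PHF2 peaks were called with MACS, per the file headers, and the deposited score of each peak is the authors' own, on a scale that no header or label names. The deposited score of the H3K9me2 regions was 0 throughout, so they were described by position and length. The MACS version, control and settings, the H3K9me2 caller and any pooling are not given in the sources used here. Alignment tool and build, per the submitters' processing notes, were Bowtie2 and mm10. The read depth is unknown, and Poisson intervals cover counting error only.

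From these lists, overlaps of at least 1 bp were computed with Python 3.11.15, numpy 2.4.6, pandas 2.3.3 and scipy 1.17.1, against GENCODE M21 and windows of 1 kb on either side of every annotated start. The overlap code was tested on simulated intervals. Of 36171 H3K9me2 regions, 60 on unplaced scaffolds were left out. The receptor genes and the 7 pathway lists were chosen with earlier results of these data known, so counts over them are descriptions without a test. Apart from the receptors, the text names for each list the up to 4 genes with the highest PHF2 promoter scores and every gene with an H3K9me2 region at a start, and for each receptor the 2 genes with the nearest score and length. Of the genes this rule names in the cascade list, 2 are not reported here. Ctbp2, Pa2g4, Zfp346, Dab1 and Nrg3 were named after their values were seen, as was the rank of Nrg1 among the long genes. Motifs were searched in RefSeq promoters of GRCm38.p6. Alternatives to the window, the starts, the peak cut and the gene body were computed, and those without Fgfr2-217, without Erbb4, or with coding starts for H3K9me2 were chosen after seeing the data.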

Additional observations from a re-analysis of the deposited data

How the results depend on the processing

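The count of receptor genes with a PHF2 promoter peak stayed at 5 or 6 with other starts, windows and overlap rules. These were the first start alone (which dropped Fgfr1), coding starts, windows of 500 bp, 2 kb or 5 kb, peak centres, and peaks over the start base. The share of all protein-coding genes was likewise steady over these settings, from 27.2% at the first start to 30.9% at 5 kb. With the higher-scoring 50% of peaks the count was 5 (which dropped Fgfr3), against 14.9% of all genes. With the highest-scoring 10% of peaks it was 3 (Egfr, Fgfr1 and Fgfr2), and 2 without Fgfr2-217 as well, against 2.84% of all genes. The H3K9me2 promoter count of 1 became 3 at 5 kb (Erbb4, Fgfr1 and Fgfr2), against 15.3% of all genes, 0 at the first start, against 1.46%, and 0 at coding starts, against 2.30%. The 58 regions in the bodies (13.4 per Mb) became 24 and 5.53 per Mb with regions longer than the minimum length. That filter removes 55.6% of all regions, so a drop of this kind is not particular to the receptors. The 58 became 31 and 20.9 per Mb without Fgfr2-217, and 5 without Erbb4 as well. The median PHF2 score became 381 with Fgfr2 at its own starts. These shifts show how far the values depend on the chosen starts, window, peak cut and annotation. No paired analysis was possible because each group had 1 sample. With 1 list per target, no value could be set against the spread between samples, and a receptor without a peak or region may have lain under the authors' cut-off.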
